A study of Oryza sativa with 4 samples.

Results

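Ethylene response factors are transcription factors of plants that bind DNA through an AP2/ERF domain, and 6 of the 10455 rice genes in the deposited table are described here. Of these, 5 were taken by their descriptions as such factors, and 1 more, Os08g0408500, is described by its ERF domain and was chosen by the very large ratio of its scores at 42 and 22 °C. Genes of the related DREB2 group were left out. Some other genes with such descriptions are not among the 6 and are given further on with the rest of the AP2/ERF family. Measured values therefore had a part in the choice, and the values of the 6 genes are given as a description, with no test. They make up 7 of 14122 transcripts, since Os06g0194000 has 2 and the others 1 each. The table writes a locus such as Os01g0797600 as OS01T0797600, followed by a hyphen and the number of the transcript.

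The samples were shoots of wild-type rice, 2 weeks old and grown in a greenhouse, with 10 shoots pooled in each. Pots were turned upside down so that the shoots stood in water for 10 min, at 22 °C as the control and at 42 °C as the heat treatment. Inversion and immersion were thus common to both groups. Each temperature had 2 biological replicates, from which ribosome footprints, the stretches of mRNA that ribosomes cover, were sequenced to compare translational efficiency at both temperatures. The cultivar is not given in the sources used here. All 15 genes described as light-harvesting or chlorophyll-binding proteins, which mark green tissue, were listed with scores above 0 at both temperatures.

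In the ethylene pathway of plants, S-adenosylmethionine is turned into ACC by ACC synthase, and ACC into the gas ethylene by ACC oxidase. Without ethylene its receptors keep the kinase CTR1 active, which holds back EIN2; with ethylene, EIN2 signals to the transcription factors EIN3 and EIL, which switch on genes of ethylene response factors. These factors bind the GCC box in promoters of defence genes, and their DREB relatives bind the DRE element of drought, cold and heat genes. Some activate their targets, and others carry an EAR motif, a short stretch that recruits repressors of transcription. Members of the family answer to wounding, pathogens, submergence and temperature as well as to ethylene.

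The table gives 1 score per transcript and temperature. The score was read as footprints relative to RNA (translational efficiency), the stated purpose of the libraries. No header gives its formula, scale or any log step. All 4 samples are footprint libraries, so the source of any RNA values behind the score is not known here. With no value per replicate there is no error, no n behind a ratio and no p-value, and the depth of the libraries is unknown. A fold is the score at 42 °C over that at 22 °C, and a gene was called at 2-fold or more. The table does not separate footprints from RNA, so a higher score may come with more footprints or less RNA, and in whole shoots fewer cells of a type and less RNA per cell cannot be told apart. The median of all genes was a score of 0.0792 at 22 °C and 0.0720 at 42 °C, with 90th percentiles of 0.422 and 0.495. Genes whose scores average 0.2 or more are called well-scored here; there were 2898 above 0 at both temperatures.

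Os08g0408500 went from almost no score at 22 °C to a high one at 42 °C, and the other 5 genes were high at both temperatures and differed by less than 2-fold. Of the 6 genes, 4 were higher at 42 °C by any amount, as were 51.1% of all genes, and 2 were lower. In all, 1 was at least 2-fold higher, where 16.1% of the 9280 genes above 0 at both temperatures were, and 0 were at least 2-fold lower, where 21.6% were. All 6 are well-scored genes, of which 65.7% were higher by any amount, 11.6% higher by 2-fold or more and 7.52% lower by 2-fold or more. Os08g0408500 met the limit for well-scored genes only through its score at 42 °C, so these shares are no fair measure for it. Since the contrast had a part in the choice, nothing is read from these counts. The median log2 ratio of the 6 genes was 0.48, and 0.36 without Os08g0408500, beside 0.03 over all genes and 0.27 over well-scored genes.

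**Figure D1:**
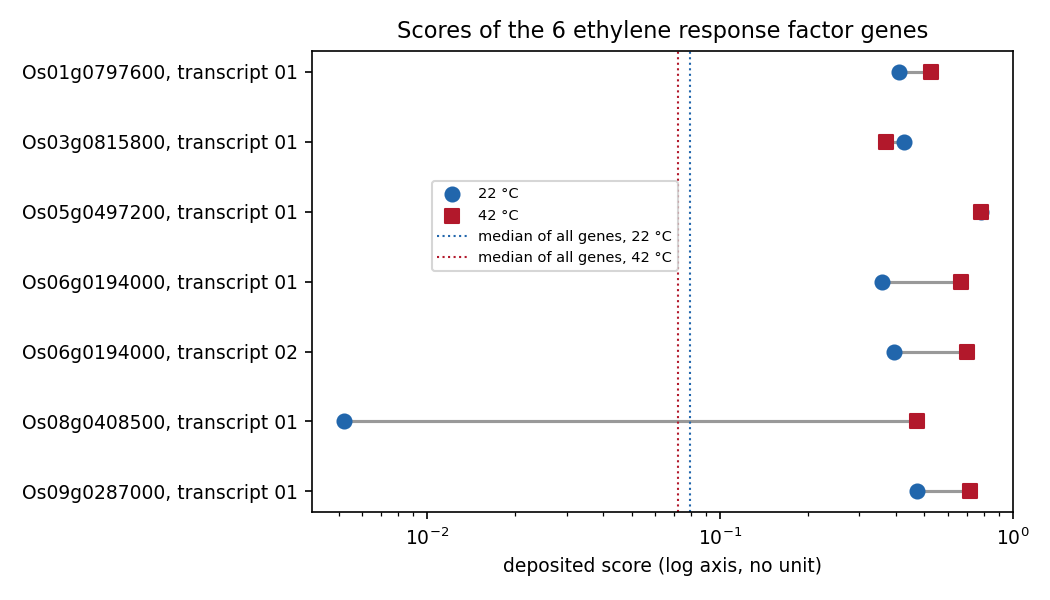
Deposited scores of the 7 transcripts of the 6 genes at 22 °C (circles) and 42 °C (squares), joined by a line, on a log axis, with the median of all genes at each temperature as dotted lines. Os08g0408500 moved from 0.00522 to 0.472, Os05g0497200 had overlapping symbols at 0.783, and only Os03g0815800 had a visibly lower score at 42 °C, 0.369 against 0.425.

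Os08g0408500 (OS08T0408500 in the table), described as a protein with a domain of pathogenesis-related transcriptional factors and ERF, had a score of 0.00522 at 22 °C and 0.472 at 42 °C. That is a fold of 90.4 and a log2 ratio of 6.50, the rank of 24 from the top among 9280 genes. Its score at 22 °C lay at the 14.6th percentile of all genes and that at 42 °C at the 89.2nd. By the difference of the scores, 0.466, the gene ranked 123 of 10455. The score at 22 °C sets the size of the fold: with 0.1 added to both scores the log2 ratio was 2.44, and with 0.01 added it was 4.98. A score so near 0 may rest on few footprints, which cannot be checked without the depth.

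Such a step from near 0 was rare in the table. Limits chosen after the scores were seen, at most 0.01 at 22 °C and at least 0.2 at 42 °C, were met by 12 genes, although 1943 genes met the first of them. By description 3 of the 12 belong to the AP2/ERF family, which has 27 of the 10455 genes in all and 6 of those 1943. Os08g0408500 is 1 of the 3 and was chosen for this contrast, so nothing is read from the count. The others are Os09g0522000, described as similar to DREB1B, with 0.00489 and 0.416, and Os08g0474000, similar to the AP2 domain protein RAP2.6, which was listed at 0 at 22 °C and had 0.590 at 42 °C. Of the other 9 genes, 7 were listed at 0 at 22 °C. The opposite step, from at least 0.2 to at most 0.01, was made by 13 genes, 0 of them described as AP2/ERF.

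The remaining genes are taken by what their descriptions say of them, repressors first. Os01g0797600 (OS01T0797600 in the table), described as an AP2/ERF repressor with an EAR motif that acts in responses to abiotic stress, had 0.410 at 22 °C and 0.525 at 42 °C. That is 1.28-fold and a log2 ratio of 0.36, at the 63.4th percentile of the ratios of all genes. Relative to the median of well-scored genes the log2 ratio was 0.09.

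Os05g0497200 (OS05T0497200 in the table) is described as similar to ERF11 of Arabidopsis, a factor that represses transcription in that plant. It had the highest score of the 6 genes at both temperatures, 0.783 at 22 °C and 0.783 at 42 °C, above 97.2% and 95.7% of all genes. The deposited difference, 42 minus 22 °C, was -9.49e-05, the smallest difference among the 7 transcripts. The gene with the next locus number, Os05g0497300, is described as similar to ethylene response factor 2 and was picked out only once its scores were known. It had 0.387 and 1.06, a log2 ratio of 1.45, so that these consecutive entries, both in the ethylene response factor family by description, changed order between the temperatures.

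Os06g0194000 (OS06T0194000 in the table), described as similar to an ethylene-responsive factor 3, had the largest ratio of the 5 genes other than Os08g0408500. Transcript 01 had 0.358 at 22 °C and 0.665 at 42 °C, and transcript 02 had 0.395 and 0.697. Their log2 ratios of 0.89 and 0.82 lay 0.07 apart. Over the 2290 genes with at least 2 transcripts above 0 at both temperatures, the ratios within a gene spanned a median of 0.65. Those genes had no minimum score and could have more than 2 transcripts, so they are no close match for this gene. Transcripts of a gene share reads, so they are no replicates. The locus average went from 0.377 to 0.681, which is 1.81-fold and a log2 ratio of 0.85, at the 80.6th percentile. It took the gene from the fifth place among the 6 at 22 °C to the third at 42 °C.

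Os03g0815800 (OS03T0815800) and Os09g0287000 (OS09T0287000) carry the same description, similar to ERF5 of Arabidopsis, a factor that activates genes through the GCC box in that plant, and their scores went opposite ways. Os03g0815800 had 0.425 at 22 °C and 0.369 at 42 °C, a fold of 0.869 and a log2 ratio of -0.20. Os09g0287000 had 0.472 and 0.715, a fold of 1.51 and a log2 ratio of 0.60. At 22 °C they were neighbours in the order of scores, in the third and the second place. At 42 °C Os09g0287000 was again second, and Os03g0815800 was the lowest of the 6. Neither reached 2-fold, and without replicate values the difference between them could not be tested.

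The order of the 6 genes at 22 °C was Os05g0497200, Os09g0287000, Os03g0815800, Os01g0797600, Os06g0194000 and Os08g0408500, with scores falling from 0.783 to 0.00522. The first 5 spanned 2.08-fold. At 42 °C the order was Os05g0497200, Os09g0287000, Os06g0194000, Os01g0797600, Os08g0408500 and Os03g0815800, and all 6 spanned 2.12-fold, against 150.1-fold at 22 °C. No spread over samples is given, so which neighbours in these orders differ beyond error is unknown. The order across genes also holds only if the score is a ratio within each transcript, from which length drops out.

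**Figure D2:**
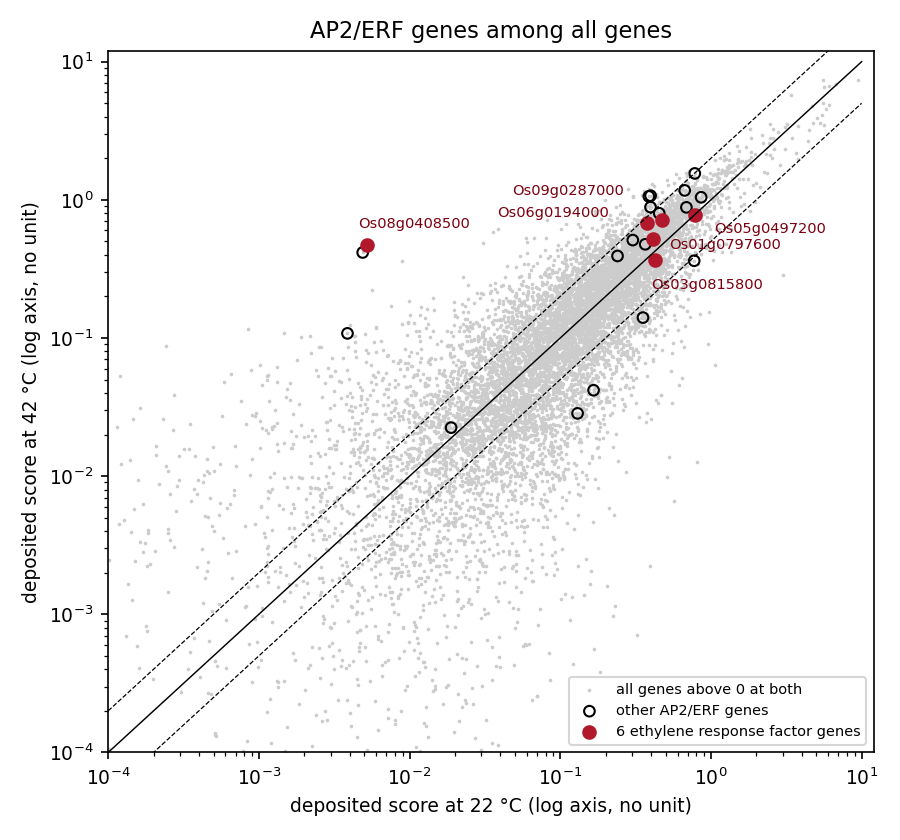
Score at 42 °C against score at 22 °C on log axes for genes above 0 at both temperatures (grey), the 18 other AP2/ERF genes among them (open circles) and the 6 genes (red, named); the solid line marks equal scores and the dashed lines 2-fold. Os08g0408500 lies far above the diagonal beside the DREB1B-like Os09g0522000, and the other 5 genes lie between the dashed lines; 94 genes with a score under 0.0001 at either temperature fall outside the axes.

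Likeness of pattern was measured as the distance between genes in the plane of the 2 log2 scores, over 2 conditions. The search covered the 6745 genes above 0 at both temperatures whose descriptions say what the protein is. Genes listed at 0 at 22 °C, as were 8 of the 12 with a step from near 0, could not be found. Few genes were thus left to lie near Os08g0408500. The gene nearest to Os08g0408500 was another of the AP2/ERF family, the DREB1B-like Os09g0522000 (0.00489 and 0.416, a distance of 0.20), and the next, the protein tyrosine phosphatase Os11g0180200 (0.00891 and 0.362), picked out with its scores known, lay at 0.86. The other 5 genes sit where the table is crowded, and their nearest genes, at distances of 0.04 to 0.07, were of other kinds. These were an RNA recognition motif protein (Os08g0547000) for Os01g0797600, a thioredoxin h (Os07g0186000) for Os03g0815800 and a glutathione peroxidase (Os06g0185900) for Os05g0497200. Os06g0194000 was nearest to a tetratricopeptide-like protein (Os10g0576600) and Os09g0287000 to the initiation factor eIF1A (Os06g0342200).

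Beyond the 6 genes, words in the descriptions gave 21 other AP2/ERF genes, 15 of them well-scored. Over all genes above 0 at both temperatures, 51.1% were higher, 16.1% past 2-fold upward and 21.6% past 2-fold downward. Of the 18 AP2/ERF genes above 0 at both temperatures 14 were higher and 4 lower at 42 °C, with 5 past 2-fold upward (27.8%) and 4 downward. The other 3 were listed at 0 at 22 °C alone. Their median log2 ratio was 0.73, and 0.81 with those 3 ranked above all others. Relative to well-scored genes, 13 were higher and 5 lower, with a median of 0.47. Without the DREB genes 14 had a median of 0.54, with 2 at least 2-fold higher and 3 lower. The list was made with results of these data known, so it lends the 6 genes no independent support. Another 3 genes taken in by the words are of other kinds, a methionine synthase, a small GTP-binding protein and an adaptin, and all 3 were at least 2-fold lower.

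Genes whose descriptions name an ERF or EREBP are closest in wording to the ones followed here. All 6 of them were higher at 42 °C, also relative to well-scored genes, and 1 was at least 2-fold higher, the Os05g0497300 named above. Of all well-scored genes 65.7% were higher and 11.6% at least 2-fold higher. The median log2 ratio of the genes naming an ERF or EREBP was 0.81. The smallest ratio was that of Os04g0669200, similar to ethylene response factor 2, with 0.861 and 1.04. Its log2 ratio of 0.28 lay so close to the median of 0.27 of well-scored genes that its direction relative to them carries no weight. Os03g0183300, of which 1 transcript is described as a BTH-induced ERF, had 0.782 and the highest score of these genes at 42 °C, 1.55. Both genes were picked out with their scores known.

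The description by an ERF domain, which Os08g0408500 carries, is found in close wording on at least 1 transcript of 6 more genes. Of these 4 were higher, 0 of them by 2-fold or more as averaged over transcripts, and 2 were lower, both past 2-fold. Os03g0183300 came closest upward at 1.99-fold, and its transcript 01 alone had a log2 ratio of 1.17. Os08g0408500 was chosen for its large ratio, so its place above these genes is no finding. Os04g0649100, of which 1 of 2 transcripts has that description, had 0.166 and 0.0419, with both transcripts lower. Os07g0227600, picked out with its scores known, had 0.774 and 0.362. Among the DREB genes, Os05g0346200 (similar to DREB2B) had 0.00387 and 0.108, a log2 ratio of 4.80, and Os01g0165000 (DRE binding protein 2) had 0.130 and 0.0285, a log2 ratio of -2.19.

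**Figure D3:**
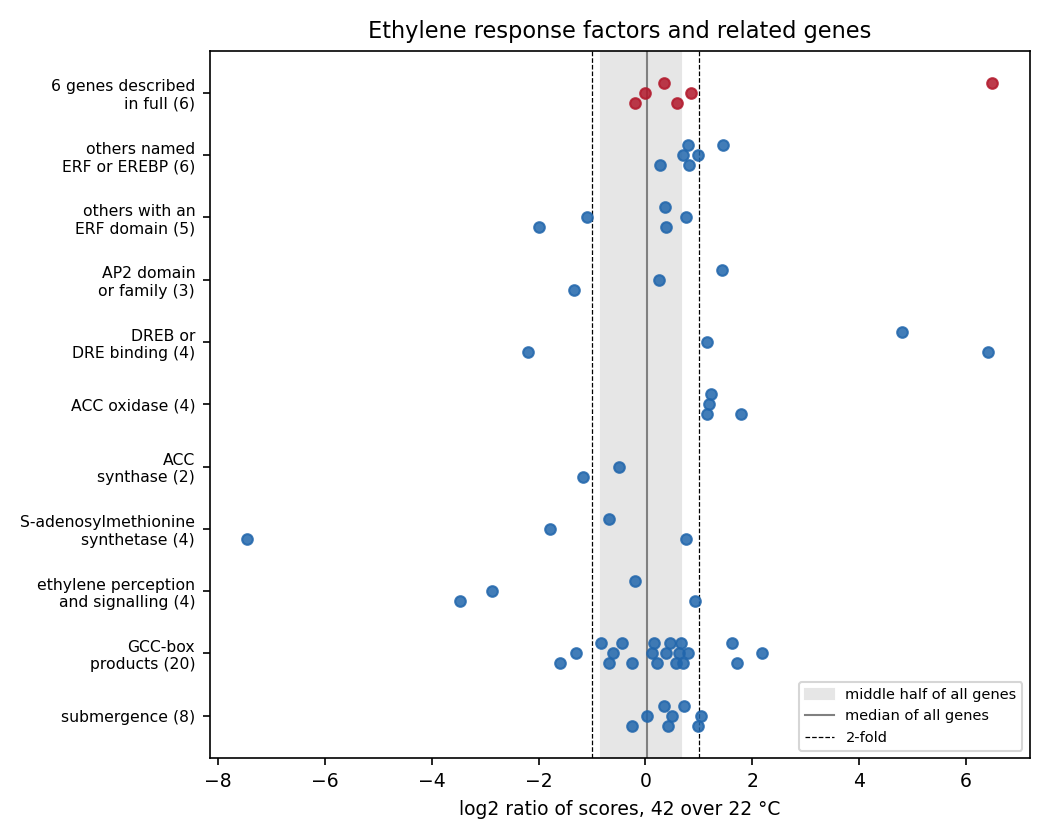
Log2 ratio of scores, 42 over 22 °C, for the 6 genes (red) and for related genes by description (blue), 1 point per gene above 0 at both temperatures, spread vertically only for legibility; Os03g0183300, which has both wordings, is plotted with the genes named ERF or EREBP. The grey band spans the quartiles of all genes, -0.83 to 0.67, the grey line is their median of 0.03 and the dashed lines mark 2-fold; all 4 ACC oxidases lie right of 1, and Os08g0408500 and the DREB1B-like gene lie beyond 6.

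Upstream of the factors, genes of ethylene synthesis are given by step. All 4 genes described as ACC oxidases, which release ethylene, were at least 2-fold higher at 42 °C, with log2 ratios from 1.16 to 1.78. Of all genes 16.1% were at least 2-fold higher, and of well-scored genes 11.6%. Relative to the median of well-scored genes all 4 oxidases were still higher, but only 1 by at least 2-fold. Os09g0451400 had 0.192 and 0.660, and Os05g0149400 had 0.565 and 1.33. Both ACC synthases had scores under 0.02 and were lower at 42 °C, 1 of them at least 2-fold, beside 21.6% of all genes. That gene is Os09g0453800, picked out with its scores known. Its 2 transcripts carry different descriptions, 1 of them of the ACC synthase family, and had log2 ratios of -3.81 and -0.92. Of the 4 S-adenosylmethionine synthetases 3 were lower and 1 higher. Os05g0135700 had 0.396 and 0.00225, with transcript 01 listed at 0 at 42 °C, and Os01g0323600 had 0.392 and 0.113. These enzymes supply many pathways besides ethylene.

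Genes of ethylene perception and signalling were low in score or lower at 42 °C, with 1 exception. Of 7 genes listed, 4 were above 0 at both temperatures, 3 of them lower and 1 higher, where 51.1% of all genes were higher. At least 2-fold lower were 2 of the 4, beside 21.6% of all genes. With so few genes nothing is read from these counts. Of the 3 lower genes, the CTR1-like Os08g0103000, picked out with its scores known, had 0.0247 and 0.0214, and its transcripts went opposite ways. Transcript 01 had 0.0235 and 0.0429, and transcript 02 had 0.0259 and was listed at 0 at 42 °C. Os03g0324300, similar to EIL factors, had 0.106 at 22 °C and 0.00961 at 42 °C, a log2 ratio of -3.47, and all 5 of its transcripts were lower. Os07g0685700, of the EIN3 family, had 0.159 and 0.302, a log2 ratio of 0.93. The entries similar to EIN2 were at most 0.0204 at 22 °C, and 2 of the 3 were listed at 0 at 42 °C. The gene similar to an ethylene receptor was listed at 0 at both temperatures.

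Downstream, genes of the kinds that ethylene response factors are known to drive went both ways. The score, read as footprints relative to RNA, does not show how much RNA a gene makes. What the factors do at the promoters of these genes was therefore not tested. Of 20 genes for chitinases, glucanases, osmotin and thaumatin-like or other pathogenesis-related proteins, 13 were higher (beside 51.1% of all genes) and 7 lower. Their median log2 ratio was 0.30. Past 2-fold were 3 upward (15%, beside 16.1% of all genes) and 2 downward (beside 21.6% of all genes). Relative to well-scored genes the split was 10 and 10. The thaumatin-like Os12g0628600 had 0.389 and 1.20 and the chitinase Os04g0493400 had 0.0248 and 0.113, whereas the glucanase Os05g0495900 had 0.127 and 0.0513 and the chitinase Os10g0416100 had 0.115 and 0.0640. Of 8 fermentation, sucrose synthase and haemoglobin genes, of the kinds used under submergence, 7 were higher (beside 51.1% of all genes) and 1 lower. Their median log2 ratio was 0.46. Past 2-fold were 1 upward (12.5%, beside 16.1% of all genes) and 0 downward (beside 21.6% of all genes). A ninth gene, an alpha-amylase, was listed at 0 at both temperatures. Relative to well-scored genes 6 of the 8 were higher and 2 lower. The sucrose synthases Os06g0194900 (0.213 and 0.437) and Os03g0401300 (0.132 and 0.261) were the highest of these by ratio, and the haemoglobin Os06g0591600 (0.162 and 0.165) and the alcohol dehydrogenase Os02g0637700 (0.0795 and 0.102) were near the lower end. The 1 gene with a lower score at 42 °C, Os03g0340500, picked out with its scores known, is also a sucrose synthase (0.0222 and 0.0187). Another 2 genes taken in by the words, a cinnamyl alcohol dehydrogenase and a leghaemoglobin reductase, are of other kinds.

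The direction of the ratio was kept for all 6 genes under each other way of computing it that was tried. Os06g0194000 lay near the limit of 2-fold, and its log2 ratio was 1.02 when the score was taken as log2(1 + ratio), which places it past 2-fold. Os05g0497200 had a ratio so close to 1 that its direction carries no weight. These factors share a conserved DNA-binding domain, and how reads that match several genes were counted is not given in the sources used here.

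**Figure D4:**
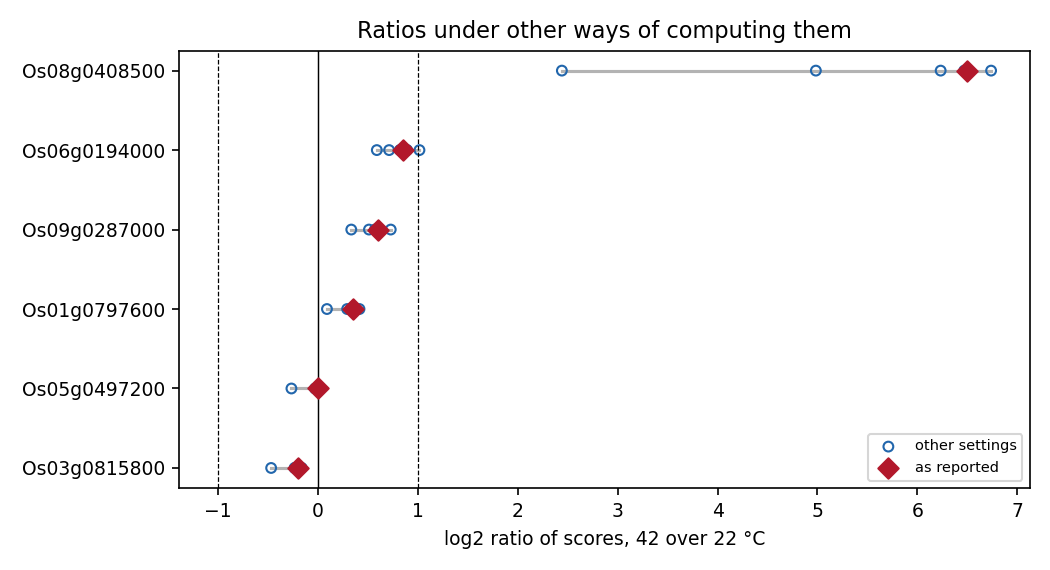
Log2 ratio of scores, 42 over 22 °C, for the 6 genes as reported (diamonds) and under the other settings tried (circles), joined by a line, with 2-fold as dashed lines. The ratio of Os08g0408500 ran from 2.44 to 6.74, that of Os06g0194000 from 0.59 to 1.02, and no gene changed sides of 0.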

How the data were processed

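Per the submitters' processing notes, the reads of 4 footprint libraries went through cutadapt and Bowtie2. The sources used here give no versions, genome build, annotation or formula of the score. The authors deposited 1 score per transcript and temperature and the difference of both scores, which matched the score columns within 1e-05 for all 14122 transcripts. Scores were averaged over the transcripts of a locus, and the log2 ratio was taken for genes above 0 at both temperatures. A call is a ratio of at least 2-fold; no test was possible.

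The 6 genes and the 5 lists, made by words in the descriptions, were chosen with earlier results of these data known. Genes named are the 6, the gene nearest to each, and from each list the 2 largest and the 2 smallest ratios among genes whose scores average 0.05 or more; others are marked as picked out with their scores known. Words such as ERF, EIN and ADH were matched as whole words. The plan had foreseen sequence features, which were not analysed here. The reference gene table of assembly ASM3414082v1 matched 0 of the 6 loci. Tried besides were other thresholds, minimum scores, added values, centring and transcript choices. The computation of ratios and calls was tested on simulated data. Python 3.11.15, numpy 2.4.6, pandas 2.3.3 and matplotlib 3.10.9 were used.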

Additional observations from a re-analysis of the deposited data

How the results depend on the processing

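No ratio of the 6 genes changed direction in 43 values computed under other settings, and 40 stayed on the same side of 2-fold and within 1.5-fold of the reported ratio. The exceptions were Os08g0408500, with a log2 ratio of 2.44 with 0.1 and 4.98 with 0.01 added to every score, and Os06g0194000, with 1.02 when the score was taken as log2(1 + ratio). That reading put 2 of the 6 genes at least 2-fold higher in place of 1, and a threshold of 1.5-fold put 3. Over all genes, 1495 higher and 2002 lower became 243 and 262 with 0.1 added. With fewer genes entering, they became 866 and 897 among genes averaging 0.05 or more, and 337 and 218 among the well-scored genes averaging 0.2 or more. A threshold of 3-fold gave 761 and 1253, and 1.5-fold gave 2580 and 2862. Higher genes made up 42.8% of calls, 60.7% among well-scored genes and 30.04% with the median of these as the centre. Over the genes of the 5 lists, 13 higher and 11 lower became 7 and 2 with 0.1 added, and 6 and 7 at 3-fold. There were 26 higher and 15 lower at 1.5-fold, and 8 and 12 when centred on well-scored genes. Among well-scored genes there were 10 and 3, and with each transcript on its own 18 and 17. Leaving out a replicate could not be run, because the table has 1 score per temperature. No paired analysis was possible because the columns carry no replicate numbers. Depth is unknown, so the precision of low scores, that of Os08g0408500 at 22 °C above all, is unknown too.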
